A study of Acrobeloides nanus with 194 samples.

Results

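The 100 rows described here are transcripts of the nematode Acrobeloides nanus that leaned towards the germline precursors P1, P2 and P3 of the early embryo, and they are called the P-leaning rows. They were taken from the 16853 rows of a table of transcript counts. The table gives its rows no identifier, so each is named by its position below the header and no gene name or sequence can be given. The choice was made on measured values. Counts were turned into CPM, the count of a row scaled to a common library total, in the 150 libraries with at least 10000 counts and put on the scale log2(CPM + 50). A row was considered if the highest of its means in 4 age bins exceeded the lowest by at least 0.5 and by under 1, which left 1396 rows. The bins were embryos of 1 to 4 cells, embryos of 5 to 16 cells, the stages titled E2, E4 and E8, and the stages titled VE, Comma and LE. For each such row the lead D was the smallest of 3 differences between group means, P1 minus AB at the 2-cell stage, P2 minus AB at the 3-cell stage and P3 minus AB at the 4-cell stage. D was above 0 in 540 of the 1396 rows, and 484 (34.7%) also had a higher mean in P2 than in its sister EMS. The 100 with the largest D, from 0.45 to 0.95 with a median of 0.55, are the members.

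In nematode embryos the zygote P0 divides unequally into the somatic founder AB and the germline precursor P1. P1 gives P2 and EMS, P2 gives P3 and C, and the last P cell founds the germline. In Caenorhabditis elegans the P cells receive the germ granules called P granules, stay transcriptionally silent, and keep many maternal messenger RNAs that are lost from their somatic sisters. A. nanus is a free-living, parthenogenetic species in which early somatic blastomeres can take over the fate of a lost neighbour.

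Embryos were freed of the egg shell and taken apart by hand, and the RNA of each cell or small group of cells was amplified and sequenced by CEL-Seq2, a method that barcodes samples before pooling and reads transcripts near the 3' end. All samples were untreated embryos, and no strain is given in the labels. The kept early groups were P1 and AB at the 2-cell stage (7 libraries each), P2 (5), EMS (4) and AB (7) at the 3-cell stage, and P3 (4), p4 (2), C (2), EMS (1) and AB (3) at the 4-cell stage, beside P0 (3). The libraries titled p4 come from 4-cell embryos, in which the labels do not say how p4 and P3 differ, so they were kept apart. Later groups were P4 cells and somatic cells of 5-cell and 13-cell embryos and pieces of older embryos. Each named cell occurs once in an early embryo, so its replicate libraries stem from different embryos, but the labels do not say which libraries of different cells share one. The cell names could not be checked against marker genes, because the rows have no gene names.

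The 150 libraries held 10179 to 1217040 counts, with a median of 47011, and another 41 libraries under 10000 counts were left out. At 10000 counts 1 count is worth 100 CPM, more than the mean of a typical P-leaning row. Libraries of the same cell also fell apart along the first principal component of the 904 most counted rows, which held 24.3% of the variance. Among the 904 rows were 30 members, so correlations of those members with this component are partly built in. The 78 libraries with a score under 0 on this component are termed low-score. In 2-cell embryos they included 2 of 7 P1 and 4 of 7 AB libraries, and in 3-cell embryos 1 of 5 P2, 2 of 4 EMS and 3 of 7 AB libraries. In 4-cell embryos they included 1 of 4 P3 and 1 of 3 AB libraries. The AB and EMS groups therefore held a larger share of low-score libraries than the P1, P2 and P3 groups, so differences are given below with and without them where libraries remain on both sides.

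The P-leaning rows were of ordinary abundance. Their mean over the 150 libraries ran from 16.3 to 809 CPM with a median of 71.5 CPM, against a median of 72.1 CPM in the other 1296 rows of the same span. The highest count of any of them in 1 library was 810. Of the 100 rows, 0 were counted in every one of the 150 libraries. No 2 members stood in adjacent rows of the table.

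Together the 100 rows took 2.27% ± 1.37 of the counts in P1 libraries and 1.22% ± 0.992 in the AB cell beside it (SD, n = 7 each). At the 3-cell stage they took 2.72% ± 1.21 in P2 (n = 5), 1.08% ± 0.553 in EMS (n = 4) and 1.46% ± 1.07 in AB (n = 7). At the 4-cell stage they took 2.30% ± 1.07 in P3 (n = 4) and 0.975% ± 0.709 in AB (n = 3). These shares describe the groups that chose the rows, so they carry no test. Every pair of groups overlapped from library to library. The P1 libraries ran from 0.475% to 3.83% with a median of 2.27%, and the AB libraries of that stage from 0.309% to 2.95% with a median of 0.836%. In P2 the 5 libraries stood at 0.640%, 2.94%, 2.96%, 3.29% and 3.77%, and in EMS the 4 stood at 0.635%, 0.665%, 1.21% and 1.81%. Apart from 1 low P2 library, P2 lay above every EMS library. In P3 the 4 libraries stood at 1.19%, 1.58%, 3.11% and 3.31%, and in the AB cell of that stage the 3 stood at 0.258%, 0.990% and 1.68%. CPM is a share of what was counted in a library, so more copies of these transcripts in a P cell and fewer copies of all others cannot be told apart.

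**Figure D1:**
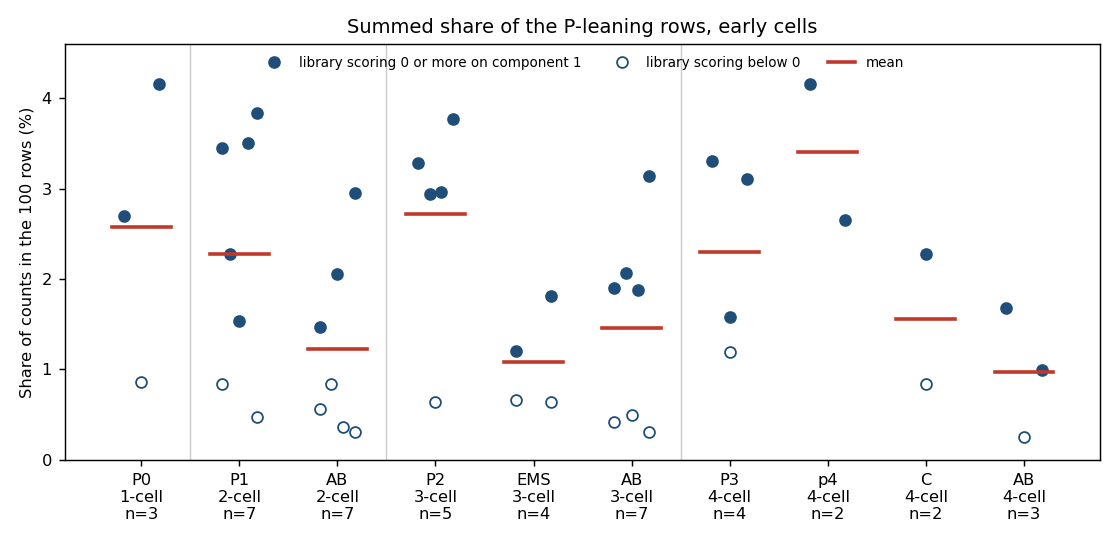
Share of all counts that fell in the 100 P-leaning rows (y axis, percent) in the kept libraries of the 1-cell to 4-cell stages, with P0 apart and, within a stage, the P cells left of the other cells. The single EMS library of the 4-cell stage is not drawn. Filled points are libraries scoring 0 or more on the first component, open points are low-score libraries and bars are group means; the open points lie at or under 1.19% in every group, and the P2 mean of 2.72% stands above 1.08% in EMS.

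Without the low-score libraries the shares kept their order. They averaged 2.92% in P1 against 2.16% in AB at the 2-cell stage, 3.24% in P2 against 1.51% in EMS and 2.25% in AB at the 3-cell stage, and 2.67% in P3 against 1.33% in AB at the 4-cell stage. The P cell had the larger share in 7 of 7 same-numbered pairs of P1 and AB, 4 of 5 of P2 and AB, 3 of 4 of P2 and EMS, and 3 of 3 of P3 and AB. In the remaining 2 pairs the P2 library was replicate 1, at 0.640%, against 1.21% in EMS and 1.90% in AB of that number. The labels do not say that a shared number marks a shared embryo. The pairs are of the libraries that chose the rows, so they carry no test. Between P1 and AB the members higher in P1 ran from 45 of 100 in replicate 2 to 100 in replicate 4. Of the other rows of the span 39.9% and 70.2% were higher in those pairs.

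The differences that chose the rows were unequal in size, and their order carries no test. The median of the 100 differences on the log2(CPM + 50) scale was 0.64 for P1 minus AB, 0.75 for P2 minus AB, 0.89 for P3 minus AB and 0.86 for P2 minus EMS. The other 1296 rows of the span had medians of 0.19, 0.08, 0.23 and 0.07 in those comparisons, and 70.2%, 58.3%, 64.1% and 54.9% of them were higher in the P cell, so a tilt towards P cells was common among rows that were not members. All 3 differences from AB were above 0 in 33.95% of those rows. The smallest of the 3 was P1 minus AB for 60 members, P2 minus AB for 25 and P3 minus AB for 15. This was not counted for the other rows. Without the low-score libraries 94 members were higher for P1 over AB and 93 for P2 over AB. It was 96 for P3 over AB and 100 for P2 over EMS. The medians were 0.39, 0.65, 0.91 and 0.95, and 61.03%, 49.85%, 60.3% and 56.6% of the other rows were higher. After every library was thinned at random to 10000 counts, 92, 95, 92 and 97 members were higher, with medians of 0.56, 0.99, 0.88 and 1.01. Of the other rows 57.2%, 55.9%, 56.25% and 54.2% were higher. Both settings reuse libraries that chose the rows, so these counts carry no test.

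**Figure D2:**
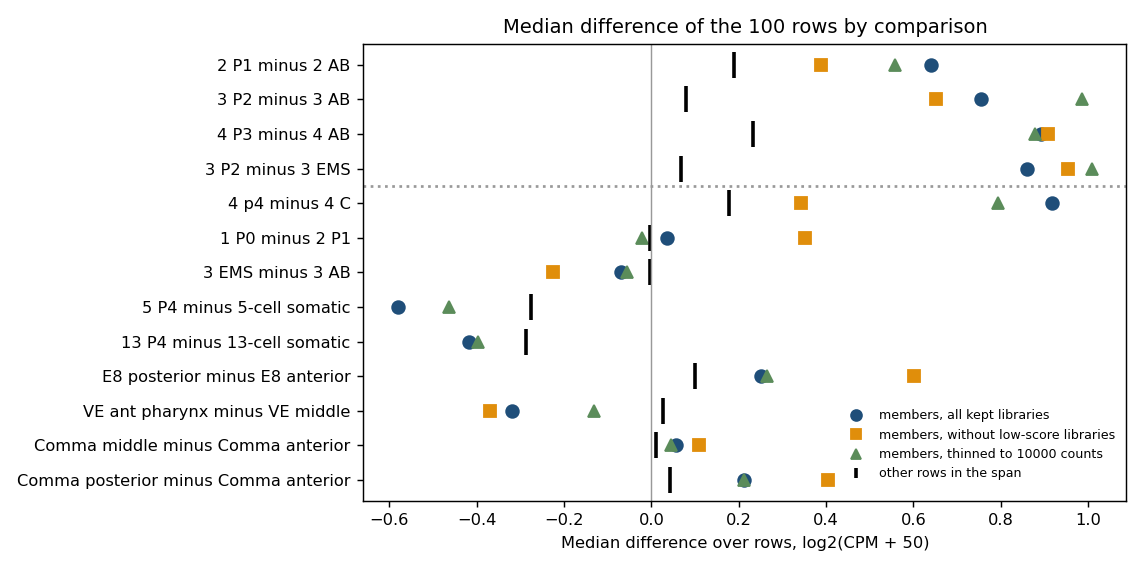
Median difference over the 100 P-leaning rows on the log2(CPM + 50) scale (x axis) for each comparison (y axis), with all kept libraries, without low-score libraries and after thinning, beside the median of the other rows of the span (black ticks). Comparisons above the dotted line chose the rows. Below it, P0 minus P1 and EMS minus AB still hold libraries that entered the choice. The median for p4 minus C lies at 0.92 and those for P4 minus somatic cells lie below 0, at -0.58 and -0.42.

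Row 14183 had the largest lead, with D of 0.95. Its level was 42.1, 117.4, 316, 530 and 597 CPM in the 5 P2 libraries, against 68.7, 91.04, 112.1 and 124.2 CPM in EMS. It was 224, 232, 348 and 498 CPM in P3, against 51.6, 78.3 and 159.2 CPM in AB of the 4-cell stage. In P3 the lowest library lay above the highest AB library, whereas in P2 the lowest lay below every EMS library. In AB of the 3-cell stage row 14183 ran from 29.4 to 179.7 CPM with a median of 114.45 CPM, which overlapped P2. At the 2-cell stage it ran from 121.1 to 581 CPM with a median of 234 CPM in P1, and from 18.6 to 221 CPM with a median of 130.1 CPM in AB. Its correlation with the library score was 0.49 over the 150 libraries, which share their amplification and their range of depths.

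Row 16104, with D of 0.92, was the second most abundant member in the P1, P2 and P3 libraries. Its level was 42.1, 972, 1404, 1516 and 1691 CPM in P2, against 149.5, 171.6, 328 and 678 CPM in EMS. It was 186.6, 591, 1428 and 1477 CPM in P3, against 0, 597 and 861 CPM in AB of the 4-cell stage. The groups overlapped in both pairs, through 1 low library of P2 and 2 of P3. In AB of the 3-cell stage row 16104 ran from 39.7 to 1367 CPM with a median of 651 CPM, which also overlapped P2. At the 2-cell stage it ran from 27.5 to 1687 CPM with a median of 776 CPM in P1, and from 0 to 1228 CPM with a median of 403 CPM in AB. Its level followed the library score closely, with a correlation of 0.91.

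Row 8810, with the third largest D, had a correlation of 0.31 with the score. It stood at 84.2, 110.4, 175.4, 176.1 and 216 CPM in P2, against 0, 30.4, 44.7 and 67.3 CPM in EMS. It stood at 74.6, 147.6, 166.1 and 232 CPM in P3, against 0, 0 and 39.8 CPM in AB of the 4-cell stage. No P2 library fell in the range of EMS and no P3 library in that of AB of the 4-cell stage. In AB of the 3-cell stage row 8810 ran from 0 to 122.7 CPM with a median of 58.6 CPM, which overlapped P2. In P1 it ran from 55.02 to 302 CPM with a median of 231 CPM, and in AB of the 2-cell stage from 0 to 176.5 CPM with a median of 88.5 CPM, so the 2-cell groups overlapped. These levels rest on few molecules, with 2 to 26 counts in the P2 libraries and 0 to 9 in EMS.

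Row 2735, with the fourth largest D, stood at 189.8, 224, 261 and 648 CPM in P3, against 51.6, 78.3 and 189.01 CPM in AB of the 4-cell stage, so that the groups met without overlapping. It stood at 42.1, 185.8, 464, 509 and 552 CPM in P2, against 34.3, 89.7, 104.4 and 243 CPM in EMS. In AB of the 3-cell stage it ran from 0 to 565 CPM with a median of 126.96 CPM, the highest library reaching above every P2 library.

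Row 16172, with the fifth largest D, was the row of these 5 with the lowest levels in EMS and in AB of the 3-cell stage. Its level was 0, 19.6, 105.3, 243 and 373 CPM in P2, against 0, 7.48, 19.9 and 20.2 CPM in EMS. In AB of the 3-cell stage it ran from 0 to 42.3 CPM with a median of 14.7 CPM. It was 37.3, 105.5, 149.5 and 376 CPM in P3, against 0, 51.6 and 69.6 CPM in AB of the 4-cell stage. The P2 range overlapped that of EMS through 2 low P2 libraries, and C of the 4-cell stage was split, at 0 and 300 CPM.

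The other 5 of the 10 largest leads were rows 8731, 3439, 1410, 9737 and 7822, with D from 0.77 to 0.80. Mean levels in P2 ran from 96.7 CPM for row 9737 to 490 CPM for row 1410, and in EMS from 33.7 CPM for row 9737 to 187.98 CPM for row 1410. In P3 row 9737 had the lowest mean of the 5, 82.7 CPM, and row 3439 the highest, 282 CPM, while in AB of the 4-cell stage the lowest was row 9737 at 9.95 CPM and the highest row 3439 at 106.1 CPM. Each of these 5 rows was at 0 in at least 1 early library, and 3 of them, rows 3439, 1410 and 7822, also reached over 300 CPM in an AB library of the 2-cell or 3-cell stage.

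**Figure D3:**
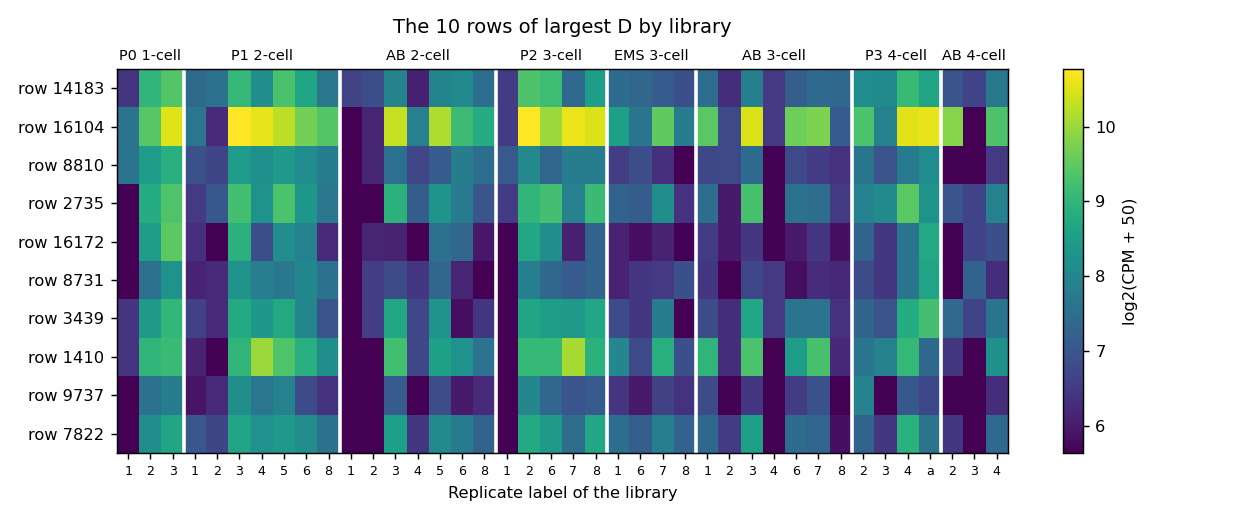
Level of the 10 rows with the largest lead (down the page, on the log2(CPM + 50) colour scale) in each kept early library (across, by cell and by replicate label). Row 16104 is the brightest in most P2 and P3 libraries, and replicate 1 of P0, of AB in 2-cell embryos and of P2 is dark in most of the rows.

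By mean over the P1, P2 and P3 libraries the 5 most abundant members were row 4240 at 1468 CPM, row 16104 at 951 CPM, row 16087 at 779 CPM, row 4304 at 717 CPM and row 4628 at 715 CPM. Rows 16104, 16087, 4304 and 4628 had correlations of 0.91, 0.94, 0.92 and 0.93 with the library score. That score was computed with members among its rows. Row 4240 had a correlation of 0.03 and was ordered differently. It stood at 316, 508, 1616, 3218 and 3747 CPM in P2, against 405, 586, 688 and 1236 CPM in EMS. The highest P2 library for this row was replicate 1, the one lowest in the summed share, and the lowest P3 library, at 173.8 CPM, was replicate a, high in the summed share at 3.11%. In P3 the other libraries stood at 199, 1919 and 3545 CPM, against 103.2, 156.6 and 1791 CPM in AB of the 4-cell stage, and the groups overlapped.

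The limit of 100 fell in a dense part of the list. The last members were row 12755, with D of 0.45, and row 4418, also 0.45; the first rows outside were row 5788, with 0.45, and row 1113, with 0.44. Row 4418 averaged 148.9 CPM in P2 and 56.3 CPM in AB of the 3-cell stage, and row 5788 averaged 165.8 CPM in P2 and 109.5 CPM in that AB cell. The rows on both sides of the limit had leads of nearly the same size.

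Across cells that the lead D did not use, the shares in P0 libraries overlapped those of the P cells. The P0 shares were 0.858%, 2.70% and 4.15%, the lowest being a low-score library. The median row averaged 191.01 CPM in P0, against 158.5 CPM in P1 and 85.9 CPM in AB of the 2-cell stage. Set against P1, P0 was higher for 56 of the 100 rows with a median difference of 0.04, and for 90 rows with a median of 0.35 without the low-score libraries. Of the other rows of the span, 49.7% were higher in P0 with all libraries and 70.2% without the low-score ones. The size of the lead of P0 over P1 thus depended on the libraries kept, in members and in other rows. The P1 libraries, but not those of P0, entered the lead D, so this comparison carries no test. By highest group mean on the log2(CPM + 50) scale among all kept early groups, 54 rows peaked in p4, 17 in P2, 14 in P0, 5 in P1, 5 in C, 4 in P3 and 1 in EMS of the 4-cell stage. The p4 group has 2 libraries and that EMS group 1. Peaks were not counted for the other rows of the span, so the 54 in p4 are not shown to be particular to the members.

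Between the somatic cells of the 3-cell stage, EMS was above AB for 40 of the 100 rows with a median difference of -0.07, where 49.5% of the other rows of the span were higher. Leaving out the low-score libraries gave 28 rows and -0.22, where 37.04% of the other rows were higher. The rows were chosen to have lower means in both EMS and AB than in P2, so the order of EMS and AB carries no test. The median row averaged 175.6 CPM in P2, against 66.98 CPM in EMS and 71.8 CPM in AB. At the 4-cell stage C, the sister of P3, lay between P3 and AB. The median row averaged 157.6 CPM in P3, 111.2 CPM in C and 44.04 CPM in AB, and C was above AB for 79 rows with a median of 0.57, where 51.9% of the other rows were higher. With the low-score libraries left out, and 1 C library kept, it was 88 rows and 0.80, where 59.65% of the other rows were higher. P3 was above C for 75 rows with a median of 0.44, where 61.4% of the other rows were higher. Without the low-score libraries, and with 1 C library kept, it was 64 rows and 0.15, where 51.4% of the other rows were higher. The P3 and AB libraries, but not those of C, entered the lead D, which set P3 above AB. The place of C between them, and its differences from either, thus carry no test. The single EMS library of that stage, a low-score one, held 0.574% of its counts in the rows. The 2 C libraries held 0.845% and 2.28% of their counts in the rows. Only the first of them was a low-score library.

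The libraries titled p4 in 4-cell embryos held the rows at 2.65% and 4.16%, against 0.845% and 2.28% in C. The p4 libraries lay above both C libraries. Over the 100 rows p4 was higher than C for 81, with a median difference of 0.92, while 59.7% of the other rows of the span were higher and their median was 0.18. This rested in part on 1 low-score C library, replicate a. Without it 68 rows were higher and the median fell to 0.34, where 49.5% of the other rows were higher. Without C replicate 3 it was 85 rows and 1.40, where 62.1% of the other rows were higher. Row 16104 stood at 1696 and 2146 CPM in p4, against 491 and 704 CPM in C. By edgeR's quasi-likelihood test over 682 rows, 0 of the 43 members with enough counts passed a Benjamini-Hochberg adjusted p of 0.05 in either direction, and 0% of all rows tested passed. At an unadjusted p under 0.05 there were 31 rows, of which 0 were members, and DESeq2 called 0 rows. With 2 libraries a side the difference was not detectable row by row.

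The lean was not seen in P4 cells of 5-cell and 13-cell embryos. At the 5-cell stage the 2 P4 libraries held 0.233% and 0.788% of their counts in the rows; the title of the higher one spells the cell p4. The somatic libraries of that stage held 2.00% in AB, 0.459% and 2.19% in C and 0.444% and 0.480% in EMS. The lower P4 library lay below every somatic library, and the higher one lay within their range. The median row averaged 18.1 CPM in P4, against 95.1 CPM in C and 36.3 CPM in EMS. P4 was higher than the mean of the somatic libraries for 19 of the 100 rows, with a median difference of -0.58, where 34.3% of the other rows of the span were higher and their median was -0.27. At the 13-cell stage the single kept P4 library held 0.396%. The somatic libraries titled AB, AB2, AB3 and MS2 held 1.42%, 1.20%, 2.77% and 2.34%. Those titled MS, E, C and C2, all low-score, held 0.320%, 0.235%, 0.153% and 0.3625%. The P4 library thus lay above every low-score somatic library of that stage and below the others. Against these 8 somatic libraries P4 was higher for 19 rows, with a median of -0.42 beside -0.29 for the other rows. Of the other rows 37.1% were higher.

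All 3 of these P4 libraries were low-score libraries, against 7 of the 13 somatic ones, and their part in the result was not tested. No P4 library is left without the low-score libraries, so P4 and the score cannot be told apart here. Row 16104 was at 0 and 127.1 CPM in P4 of the 5-cell stage, against 250 and 939 CPM in C and 31.9 and 81.4 CPM in EMS. Over 485 rows, edgeR's quasi-likelihood test with stage as a term called 0 of the 18 members tested at an adjusted p of 0.05, beside 0% of all rows. The unadjusted p was under 0.05 for 61 rows, among them 6 members, each lower in P4. DESeq2 called 21 rows, of which 0 were members.

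Libraries whose titles join P4 with other cells gave both high and low shares. In 6-cell embryos the libraries titled DP4 and P4D stood at 2.37% and 0.873%. In 13-cell embryos the library titled CDP4 stood at 3.37%, and those titled P4d and E+P4 at 0.287% and 0.306%. The pieces titled P4D at E4 and p4 at LE stood at 0.330% and 0.264%. The 3 libraries titled DP4, P4D and CDP4 in 6-cell and 13-cell embryos scored above 0 on the first component, and the other 4 were low-score.

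Over the whole set of libraries the summed share followed the library score. The correlation of log2 share with score was 0.94 (Pearson) and 0.94 (Spearman) over 150 libraries, and within the 4 age bins Pearson's r was 0.92, 0.96, 0.96 and 0.92. It was 0.94 when the component was computed from the 874 rows left after taking out the 30 members among its rows. With log2 of the total count r was lower, 0.49. Low-score libraries held 0.153% to 1.19% of their counts in the rows, with a median of 0.524% over 78 libraries. The other 72 libraries held 0.873% to 4.16%, with a median of 2.07%. The 2 kinds of library overlapped little in share.

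**Figure D4:**
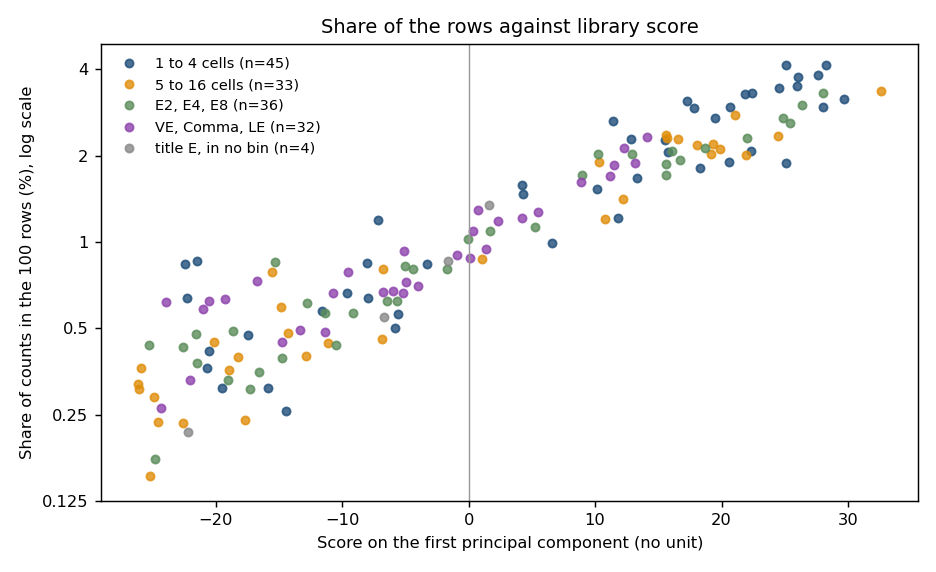
Share of counts in the 100 P-leaning rows (y axis, percent on a log scale) against the score on the first principal component (x axis, no unit) for 150 libraries, coloured by age bin. The points of all bins lie along 1 band, and the 1-cell to 4-cell libraries reach the highest shares, up to 4.16%.

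The members also moved with one another. The median correlation between 2 of the 100 rows over the 150 libraries was 0.50, from -0.13 to 0.93, against 0.06 between 2 of the other rows of the span. The median correlation of a member with the score was 0.59, from -0.04 for row 13513 to 0.94 for row 16087, against 0.29 for the other rows. The points share libraries, depth and amplification, and the members were chosen on the early ones. The score was computed with 30 members among its rows, so the correlations of members with it are partly built in.

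With age the rows were highest in the youngest embryos for 95 of 100, by the bin means that the rule also used, where 57.9% of all 1396 rows of the span were highest there. Of the other 5 members, rows 2702 and 16153 were highest in the stages E2 to E8 and rows 13513, 1478 and 11172 in VE to LE. The lowest bin was 5 to 16 cells for 24 members, E2 to E8 for 36 and VE to LE for 40. The median share of the libraries was 1.68% at 1 to 4 cells, 0.788% at 5 to 16 cells, 0.814% in E2 to E8 and 0.760% in VE to LE. Without the low-score libraries it was 2.68%, 2.18%, 2.03% and 1.30% in those bins. Among low-score libraries alone it was 0.574%, 0.379%, 0.488% and 0.662%, an order in which the oldest bin was the highest.

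**Figure D5:**
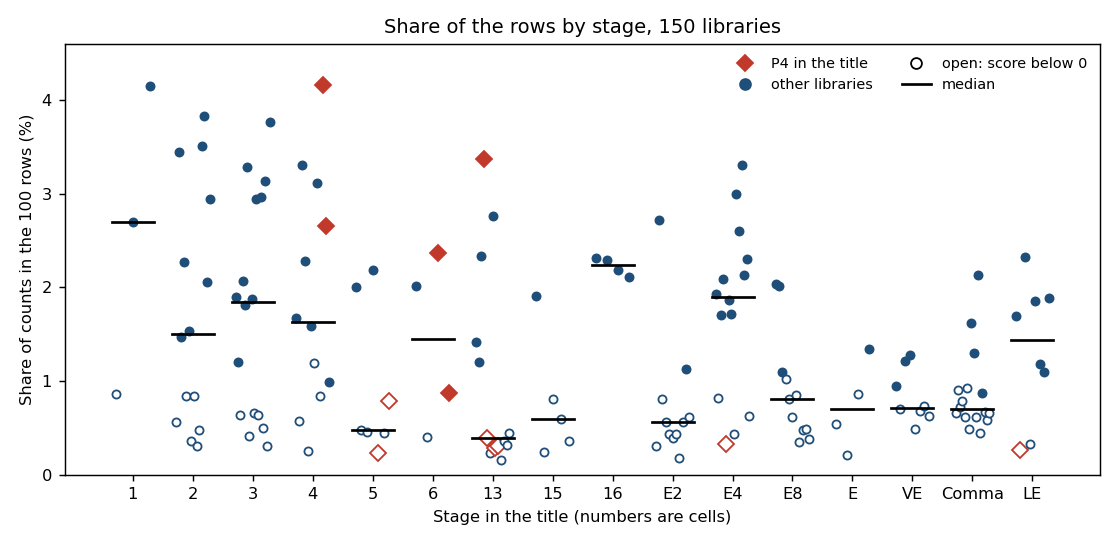
Share of counts in the 100 P-leaning rows (y axis, percent) in each of the 150 kept libraries by the stage in the title (x axis), with libraries whose titles name P4 as red diamonds, low-score libraries open and the median of each stage as a bar. The 4 libraries of 16-cell embryos all lie above 2.1%, whereas most 5-cell and 13-cell libraries lie below 0.8%.

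Within stages the shares were often split rather than graded. At the 13-cell stage the median was 0.396%, the range 0.153% to 3.37%, and 8 of 13 libraries were low-score. At the 16-cell stage the 4 libraries, none of them low-score, held 2.11% to 2.31%. At E4 10 of 14 libraries were not low-score and the median was 1.90%, and at E2 2 of 11 were not and the median was 0.563%.

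In pieces of older embryos no P-leaning row passed the test. In E8 embryos the posterior pieces, titled post_E and post_Abp, held 0.351%, 0.613%, 0.806%, 0.852%, 2.02% and 2.03%, and the anterior pieces 0.379%, 0.477%, 0.488%, 1.02% and 1.10%. The posterior pieces were higher for 75 of the 100 rows with a median of 0.25, where 59.5% of the other rows were higher with a median of 0.10. Without replicate 1 of post_E the median fell to 0.07 and 57 rows were higher, where 52.2% of the other rows were higher. Without the low-score libraries, which leaves 2 posterior libraries and 1 anterior, 85 rows were higher with a median of 0.60, where 65.05% of the other rows were higher. The edgeR test over 202 rows called 0 of the 5 members tested and 0% of all rows. There were 12 rows at an unadjusted p under 0.05, of which 0 were members, and DESeq2 called 4 rows and 0 members. Low-score libraries made up 4 of the 6 posterior and 4 of the 5 anterior pieces.

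At the stage titled VE most rows had a lower mean in the anterior pharynx than in the middle, with all kept libraries. The anterior pharynx held 0.676%, 0.702%, 0.733% and 0.947%, against 0.632%, 1.21% and 1.28% in the middle. The pharynx libraries lay between the lowest and the upper middle libraries. The rows were higher in the pharynx for 18 of 100, with a median difference of -0.32, where the other rows of the span had 52.7% and a median of 0.03. Without replicate 1 or 2 of the middle the median was -0.08 in both cases, with 37 and 40 rows higher. Of the other rows 58.2% and 60.8% were higher in those cases. Without replicate 3 the median was -0.54 with 14 rows higher, where 42.05% of the other rows were higher. Of the pharynx libraries 3 of 4 were low-score, against 1 of 3 of the middle. Leaving out the low-score libraries, with 1 pharynx library left, gave 19 rows higher and a median of -0.37, where 47.2% of the other rows were higher. The labels give 2 stages within these groups, comma stage for replicates 1 and 2 of both and gastrula for the others. Among comma stage libraries 13 rows were higher in the pharynx with a median of -0.45, where 42.5% of the other rows were higher. Among gastrula libraries, with 1 of the middle, 67 rows were higher with a median of 0.25, where 68.4% of the other rows were higher, so the difference did not hold within both labels. The edgeR test over 1555 rows called 0 of the 25 members tested and 0% of all rows, with 71 rows and 0 members at an unadjusted p under 0.05, and DESeq2 called 4 rows and 0 members.

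At the Comma stage the posterior pieces held 0.491%, 0.584%, 0.665%, 1.30% and 1.62%, the middle pieces 0.620%, 0.662%, 0.726%, 0.902% and 2.13%, and the anterior pieces 0.449% to 0.927% with a median of 0.728% (n = 6). Both sets overlapped the anterior pieces, and both reached higher. The posterior was above the anterior for 73 of the 100 rows with a median of 0.21, and the middle for 55 with a median of 0.06, where 53.7% and 51% of the other rows of the span were higher. With the low-score libraries left out and 1 anterior library kept, it was 81 rows and 0.41 for the posterior, where 65.7% of the other rows were higher, and 52 rows and 0.11 for the middle, with 1 library, where 47.8% were. These comparisons share the anterior libraries. Replicates 1 to 3 carry the stage label comma stage, and the pieces numbered 4 to 6 the label gastrula. In replicates 1 to 3 the posterior was higher for 86 rows with a median of 0.37, and in replicates 4 to 6 for 45 with a median of -0.04, so the difference did not hold within both sets. Of the other rows 60.1% were higher in replicates 1 to 3 and 41.6% in replicates 4 to 6. Without replicate 3 of the posterior 56 rows were higher and the median was 0.04, and without its replicate 2 it was 64 rows and 0.12. Of the other rows 47.8% and 50.5% were higher in those cases. Without replicate 5 of the middle, 50 rows were higher in the middle than in the anterior, where 50.8% of the other rows were higher. For the middle the values were 42 rows and -0.03 in replicates 1 to 3, and 59 rows and 0.14 in replicates 4 to 6, where 49.9% and 48.1% of the other rows were higher.

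The edgeR test over 703 rows called 0 of the 16 members tested in either Comma comparison, beside 0% of all rows in each. At an unadjusted p under 0.05 there were 55 rows and 0 members for the posterior and 64 rows and 1 member for the middle. DESeq2 called 0 and 15 rows, of which 0 were members. Row 16104 stood at 47.7, 142.2, 204, 492 and 953 CPM in the posterior and 21.5, 395, 457, 565 and 1392 CPM in the middle, against 26.4 to 405 CPM with a median of 180.96 CPM in the anterior. Its log2 fold change by edgeR's quasi-likelihood test was 0.99 (SE 0.83, adjusted p = 0.824) for posterior over anterior and 1.64 (SE 0.84, adjusted p = 0.549) for middle over anterior. Low-score libraries were 3 of 5 in the posterior, 4 of 5 in the middle and 5 of 6 in the anterior.

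The makeup of the set depended on the settings of the rule. With a pseudocount of 10 in place of 50, 14 of the 100 rows were chosen again, and with 100 it was 56. Without the low-score libraries 25 were chosen again and after thinning 34. In those settings 85 and 82 of the 100 met the conditions on the early cells, which a row chosen again meets by construction. Leaving out 1 early library kept between 62 rows, without AB replicate 3 of the 4-cell stage, and 98 rows, without EMS replicate 6.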

How the data were processed

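The authors deposited a table of raw counts, whole numbers per transcript row and library, made with CASAVA 1.8, Bowtie2 2.1.0 and HTSeq 0.5.4p3 per the submitters' processing notes; for settings and any collapsing of duplicate reads, they were not given in the sources used here. Columns were matched by the number ending each sample's description, and 3 columns that could not be matched safely were not used; the anterior and posterior Comma libraries numbered 4 to 6 were known as a set, not by number. Titles gave stage and cell, but 46 libraries named no cell. Those of the 46 with at least 10000 counts entered the component and the values over all kept libraries. They also entered the bins, unless titled E, a stage in no bin. The members and lists were chosen with earlier results of these data known.

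Tests used edgeR 4.0.16 (R 4.3.3, limma 3.58.1), quasi-likelihood, TMM, filterByExpr (minimum count 10, total 15), Benjamini-Hochberg over all rows tested; DESeq2 1.42.0 was an alternative. Fits were tested on simulated data. Thinning used seed 1. P-values for pieces measure the spread between pieces that may share an embryo. Named rows were the 10 of largest D, the 5 most abundant, rows past the test (there were 0) and 2 on each side of the limit; rows 13513, 1478, 2702, 16153 and 11172 were named after their values were seen.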

Additional observations from a re-analysis of the deposited data

Results flagged for a closer look

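Of 94 groups of values examined, with 4 to 10 libraries each, 8 had 1 library far from the rest of its group; chance gives about 1 in 20. In the summed share, replicate 1 of P2 stood at 0.640%, with the nearest other P2 library at 2.94%, and replicate 5 of the Comma middle pieces stood at 2.13%, with the nearest other at 0.902%. The same P2 library had 0 CPM of row 3439, and the nearest other P2 library had 293 CPM. In P3, replicate 4 had 648 CPM of row 2735, and the nearest other had 261 CPM. In P1, replicate 2 had 3796 CPM of row 4240, and the nearest other had 1629 CPM.

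Replicate 3 of AB at the 3-cell stage was the highest of its group for 3 rows. It had 565 CPM of row 2735, with 139.7 CPM in the nearest other library, 368 CPM of row 3439, with 147.1 CPM in the nearest, and 320 CPM of row 7822, with 125.02 CPM in the nearest.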

How the results depend on the processing

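The count of members past the test was 0 in every fit made, whatever the tool, scaling, filter, depth or left-out library, so every such range runs from 0 to 0. Whether the numbers pair the samples was not settled. Deviations of same-numbered pieces correlated from -0.33 to 0.52. The correlation was best with a piece's own number in 0 of 3 pairs in each Comma check. It was 2 of 3 for VE pharynx and middle and 1 of 3 for E8 post_E and post_Abp, where every same-number correlation was positive. Early cells were not checked in this way. With the number as a replicate block 0 members passed in the Comma, E8 and VE comparisons. No paired analysis was possible for P4 or p4 because their groups share fewer than 2 usable numbers. The P4 comparison could not be fitted without low-score libraries, since no P4 library is left. Calls over all rows differed from 0 without a filter on low counts: 0.370% of rows for Comma posterior, 1.09% for Comma middle, 0.132% for E8 and 0.490% for VE. Without low-score libraries, which leaves 1 library on at least 1 side that is assumed to vary like the others, they were 2.39% for Comma posterior, 0% for Comma middle, 4.90% for E8 and 0.242% for VE. With the block VE had 1 row. Values that turned round were the median of P0 minus P1 after thinning (-0.020), of Comma middle minus anterior in replicates 1 to 3 (-0.032) and of Comma posterior minus anterior in replicates 4 to 6 (-0.038), and there the log2 fold change of row 16104 (-0.63), and the median of VE pharynx minus middle among gastrula labels (0.25); the cause was not tested. The median log2 fold change of the members tested by edgeR also turned round for Comma posterior minus anterior. It was 0.71 in the main fit, -0.14 without posterior replicate 2 and -0.83 in replicates 4 to 6. Where only 1 member was tested, it turned round after thinning in both Comma comparisons and without E8 post_Abp replicate 1. TMM-scaled CPM chose 67 of the 100 rows again, libraries of at least 20000 counts 58, and bins of named libraries 89. The medians without low-score libraries, after thinning and within Comma sets or VE stage labels were added after seeing the data. Depth limits the tests: 5 to 43 of the 100 rows had enough counts.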
